A study of Mus musculus with 20 samples.

Results

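The 33 genes described here encode transporters, channels and enzymes that mark the segments of the mouse nephron. They were picked by name from the 55891 gene IDs of the count table: 20 belong to the proximal tubule, 3 to the thick ascending limb, 2 to the distal convoluted and connecting tubule, 5 to principal cells of the collecting duct and 3 to intercalated cells. Each of the 33 matched 1 gene ID, and no measured value was used to choose them.

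The cells were primary renal tubular epithelial cells of the strain B6.129-Ptprz1tm1Nmo, which carries a targeted allele of the receptor phosphatase gene Ptprz1. Cultures from heterozygous (het) or knockout (KO) animals were left untreated or stimulated with LPS (100 ng/mL) and IFNγ (10 ng/mL) for 24 h, giving 4 groups of 5 RNA-seq libraries, and the series set out to compare knockout with Ptprz1-expressing cells in both states. Every culture was kept in DMEM/Ham's F12 with 10% FBS, to which hydrocortisone, epinephrine, triiodothyronine, prostaglandin E2, EGF and insulin-transferrin-selenium were added. The labels name 10 animals, of which animals 5 and 7 are listed under both genotypes. They do not say how cultures were split or whether cells were sorted by segment, and a p-value therefore covers no more than the variation among the libraries at hand.

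As background, the proximal tubule reclaims most filtered glucose, phosphate, amino acids and bicarbonate and secretes organic anions, and it is the segment most given to losing its differentiated genes in culture. The transcription factor HNF4A is among the drivers of its programme. The thick ascending limb and distal convoluted tubule reabsorb salt through Slc12a1 and Slc12a3, principal cells reabsorb sodium and water through the epithelial sodium channel and aquaporins, and intercalated cells handle acid and base, with pendrin (Slc26a4) exchanging chloride for bicarbonate.

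2 promoters are shown because the results below turn on these genes: Slc3a1, a proximal gene that was high in few cultures, and Slc26a4, which had counts mainly in stimulated cultures. Each runs 270 bases from 250 before the start of the gene to 20 past it, 5′ to 3′, from RefSeq on GRCm38.p6, a build other than that of the counts. They lie at chr17:85028097-85028366 on the plus strand and chr12:31559965-31560234 on the minus strand. Capitals mark matches to the HNF4 site CAAAGTCCA (Slc3a1) or to GAAANNGAA, the core of an interferon-stimulated response element (Slc26a4), on either strand.
Slc3a1: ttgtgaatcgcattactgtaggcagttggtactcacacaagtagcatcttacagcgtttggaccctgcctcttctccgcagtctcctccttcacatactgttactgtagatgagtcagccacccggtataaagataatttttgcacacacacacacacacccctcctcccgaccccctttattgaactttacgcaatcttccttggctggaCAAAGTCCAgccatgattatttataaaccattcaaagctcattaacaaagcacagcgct
Slc26a4: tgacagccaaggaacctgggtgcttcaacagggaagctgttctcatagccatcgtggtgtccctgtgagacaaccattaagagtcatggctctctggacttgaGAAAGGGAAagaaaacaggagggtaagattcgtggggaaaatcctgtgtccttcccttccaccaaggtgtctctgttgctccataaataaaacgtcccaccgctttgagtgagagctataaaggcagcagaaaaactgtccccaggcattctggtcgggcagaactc

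The matches describe letters only. Over windows of 300 bases, CAAAGTCCA was present in 1 of the 27 members with a promoter entry, Slc3a1, and in 0.475% of all 32851 promoters. GAAANNGAA was in 2 members, Slc26a4 and Miox, against 8.56%. The gamma-activated site TTCNNNGAA was in 0 of the 27, against 8.30%.

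Some facts of the whole series bear on every value below. Libraries held 12899528 to 20411411 counts, so that a count of 0 allows up to 0.134 to 0.219 CPM (counts scaled to library size with TMM factors) in a library, for counting error only. Ptprz1 itself had 7 counts over the KO controls and 7 over the het controls, and 8 and 9 after stimulation (exact two-sided permutation test of CPM, p = 1 in each state, n = 5 against 5), so it did not check the genotype labels at this depth. The interferon- and LPS-induced genes went against the stimulation label in 4 libraries. Nos2 was at 0 CPM in the libraries labelled het LPS+IFNγ replicate 5 (animal 4) and KO LPS+IFNγ replicate 4 (animal 8), and at 82.8 and 202 CPM in those labelled het control replicate 5 and KO control replicate 4 of the same animals, against 1255 to 3564 CPM in the other 8 stimulated libraries and at most 0.22 CPM in the other 8 controls. Results are therefore given with all 20 libraries and with the other 16. Since those 4 were singled out by their stimulation genes, calls of stimulation over 16 libraries describe those libraries.

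The tubular label was checked on the general kidney epithelial genes. Pax8 (134 to 388 CPM) and the kidney cadherin Cdh16 (22.9 to 789 CPM) were present in all 20 libraries. Epcam, a surface marker of epithelium, was at 14.0 CPM or above in 14 libraries but at 0.146 to 0.935 CPM in the 6 libraries of animals 2, 6 and 10. Acta2, a contractile gene of fibroblasts and smooth muscle, ranged from 71.5 to 6229 CPM.

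Most segment genes were at or near 0. Taking 1 CPM as detected, 20 of the 33 members were below it in all 20 libraries, 11 reached it in some libraries, and 2, the proximal tubule genes Ggt1 and Slc4a4, reached it in all 20. Members without a single count numbered 3: the phosphate transporter Slc34a3, the proton pump subunit Atp6v1b1 and the anion exchanger Slc4a1, the latter a pair of intercalated cell genes. A library held 2 to 9 members at 1 CPM or above, and Ggt1 and Slc4a4 together made 84.4 to 95.7% of the summed CPM of the 33 members. In bulk RNA fewer cells of a segment and less RNA per cell cannot be told apart.

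**Figure D1:**
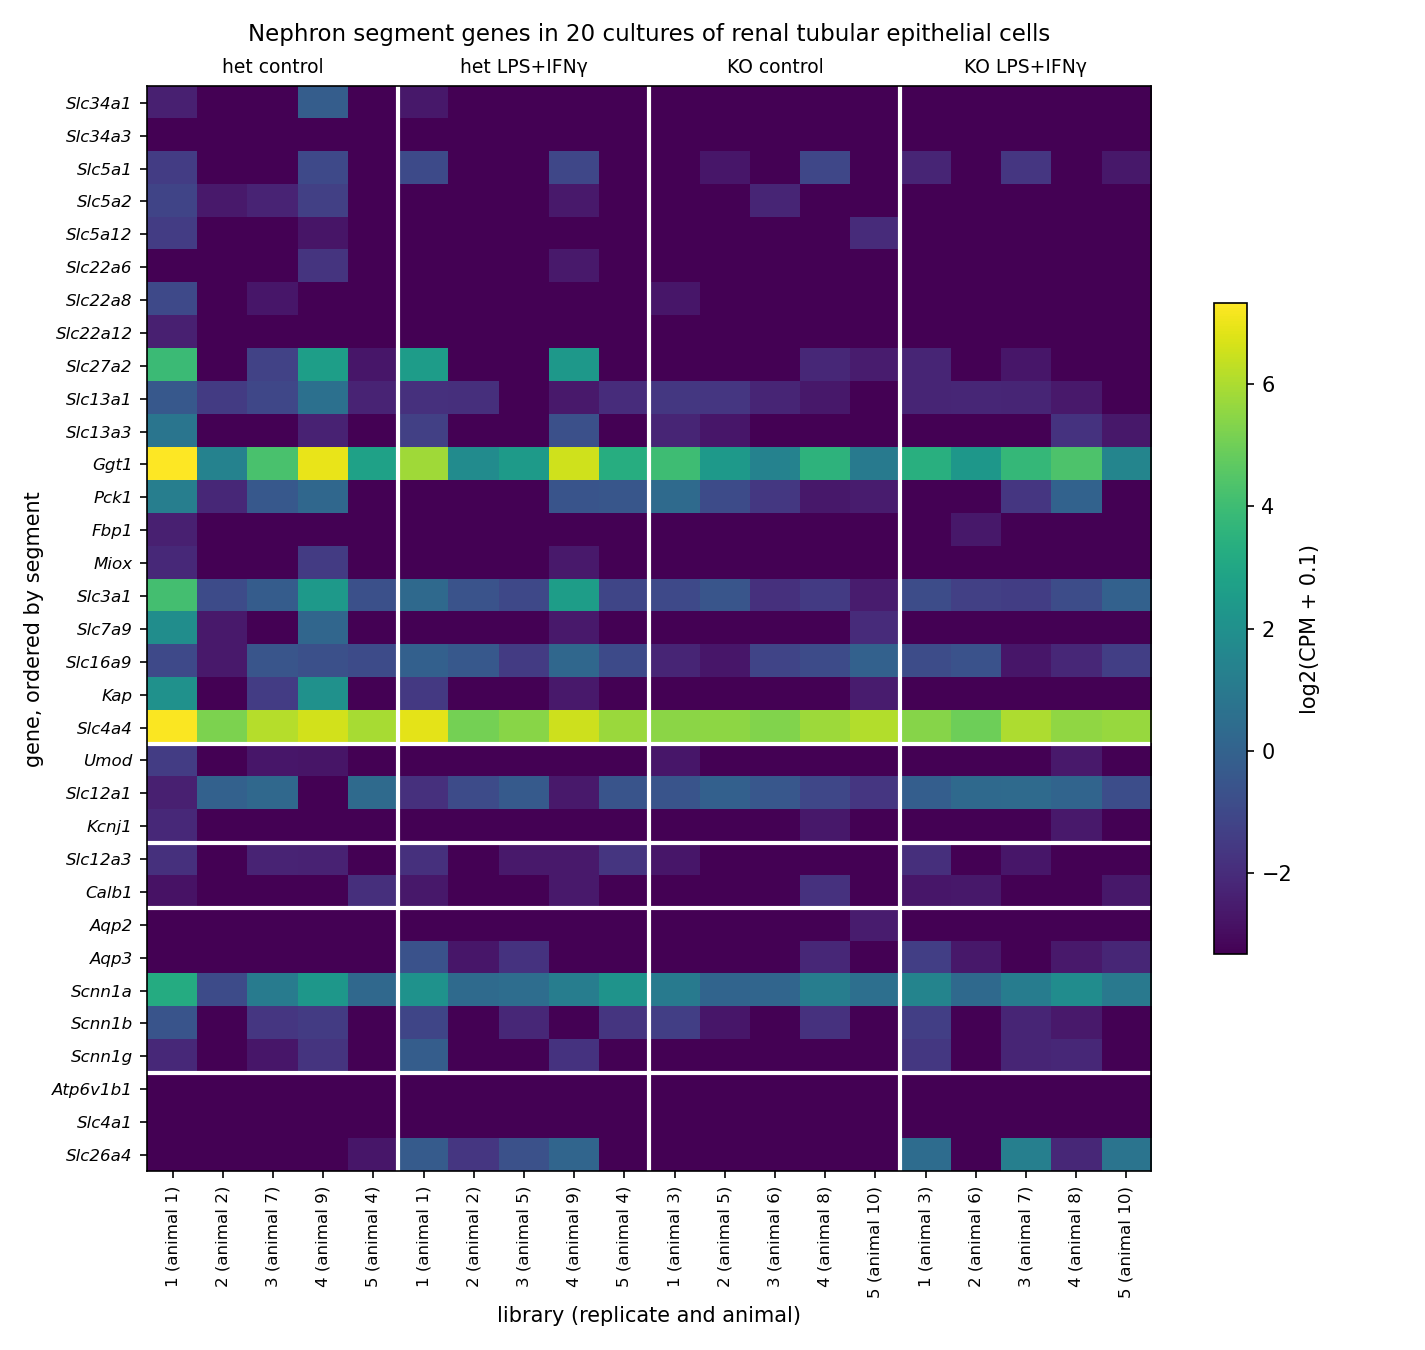
Level of each of the 33 genes (rows, by segment from proximal tubule at the top to intercalated cells at the bottom) in each of the 20 libraries (columns, by group, with replicate and animal), coloured as log2(CPM + 0.1). Ggt1 and Slc4a4 are bright in every column, 19 of 20 proximal genes peak in a library of animal 1 or 9, and most rows below the proximal tubule are dark.

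Divided by exon length, to compare genes, the order of the median levels was Slc4a4 (4.73 CPM per kb), Ggt1 (2.94), Scnn1a (0.477), Slc3a1 (0.201), Slc16a9 (0.1103) and Slc12a1 (0.106). Ggt1 ranged over 1.90 to 159 CPM and Slc4a4 over 30.8 to 152 CPM, so the order of these 2 turned between libraries. All other members had a median under 0.1 CPM per kb.

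In the proximal tubule, the genes that kept a level were few, and they were highest in the 4 libraries of animals 1 and 9, which are het. These libraries were singled out by their values, so what follows is a description with no test. For each of the 19 proximal members with counts the library with the top CPM was one of the 4, and they held most of the counts of 17 of those 19, while they made 20.4% of all counts. The summed CPM of the 20 proximal members was 182 to 358 in these 4 libraries and 36.6 to 91.3 in the other 16. High levels in these 4 were not limited to proximal genes. Of the 30 members of all segments with counts, 25 were highest in one of them. The summed CPM of 27 other collecting duct genes was 472 to 586 there and 218 to 376 in the other 16. That of 20 genes of renal epithelial identity, Hnf4a among them, was 1699 to 2124 against 438 to 1539.

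Ggt1, the brush border gamma-glutamyltransferase that breaks down glutathione, was at 159, 2.55, 19.01, 125 and 6.62 CPM in het controls 1 to 5. It was at 54.9, 3.38, 5.40, 94.1 and 9.64 CPM in het LPS+IFNγ 1 to 5. KO controls had 16.2, 5.36, 2.51, 11.5 and 1.90 CPM and KO LPS+IFNγ libraries 10.4, 4.82, 13.4, 19.9 and 2.80 CPM. The 4 values over 50 CPM are those of animals 1 and 9, and the other 16 libraries lay at 1.90 to 19.9 CPM, with the groups overlapping. Among those 16, the 6 libraries of animals 2, 6 and 10 were at 1.90 to 4.82 CPM and the other 10 at 5.36 to 19.9 CPM.

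Slc4a4, the sodium bicarbonate cotransporter of the basolateral membrane, had at least 30.8 CPM in every library. It was at 152, 37.5, 69.1, 94.6 and 60.9 CPM in het controls and at 118, 34.4, 42.3, 91.0 and 51.6 CPM in het LPS+IFNγ libraries. KO controls had 43.6, 45.7, 38.6, 54.0 and 68.4 CPM and KO LPS+IFNγ libraries 41.8, 30.8, 63.4, 47.2 and 50.6 CPM. The lowest of the 4 libraries of animals 1 and 9 was at 91.0 CPM and the highest of the other 16 at 69.1 CPM.

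Slc3a1 and Slc7a9 encode the heavy and light subunits of the cystine and basic amino acid transporter. Slc3a1 was at 17.5, 0.446, 0.765, 5.32 and 0.5004 CPM in het controls and at 1.15, 0.554, 0.391, 5.86 and 0.365 CPM in het LPS+IFNγ libraries. All 10 KO libraries lay between 0.0729 and 0.894 CPM, so that only animals 1 and 9 passed 1 CPM. Slc7a9 was at 3.57 and 1.02 CPM in the controls of animals 1 and 9, at 0 and 0.0637 CPM in their stimulated libraries and at most 0.146 CPM elsewhere.

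Slc27a2, an acyl-CoA synthetase and fatty acid transporter, was at 15.0 and 6.04 CPM in the controls of animals 1 and 9 and at 5.76 and 4.97 CPM in their stimulated libraries. The other 16 libraries had at most 0.328 CPM, and the 4 libraries held 98.0% of its counts. Kap, an androgen-regulated protein of proximal cells in mice, was at 4.02 and 4.09 CPM in the same controls and at 0.242 and 0.0637 CPM after stimulation. Its highest value elsewhere was 0.273 CPM.

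The remaining proximal members were low in every culture. Pck1, the gluconeogenic enzyme phosphoenolpyruvate carboxykinase, reached 2.23 and 1.07 CPM in the controls of animals 1 and 9 and 1.16 CPM in KO control 1. The dicarboxylate transporter Slc13a3 peaked at 1.65 CPM, the sulphate transporter Slc13a1 at 1.43 CPM and the monocarboxylate and carnitine transporter Slc16a9 at 1.08 CPM, each in 1 library above 1 CPM. For Slc16a9 the 4 libraries of animals 1 and 9 (0.402 to 1.08 CPM) overlapped the other 16 (0.0542 to 0.875 CPM).

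10 proximal members stayed under 1 CPM throughout. They were the phosphate transporters Slc34a1 and Slc34a3, the glucose and monocarboxylate transporters Slc5a1, Slc5a2 and Slc5a12, the organic anion and urate transporters Slc22a6, Slc22a8 and Slc22a12, fructose bisphosphatase (Fbp1) and the inositol oxygenase Miox. Their highest value was 0.767 CPM, of Slc34a1 in het control 4. Slc34a1, Slc22a6, Slc22a12 and Miox had all of their counts in libraries of animals 1 and 9, with 18, 5, 2 and 9 counts.

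**Figure D2:**
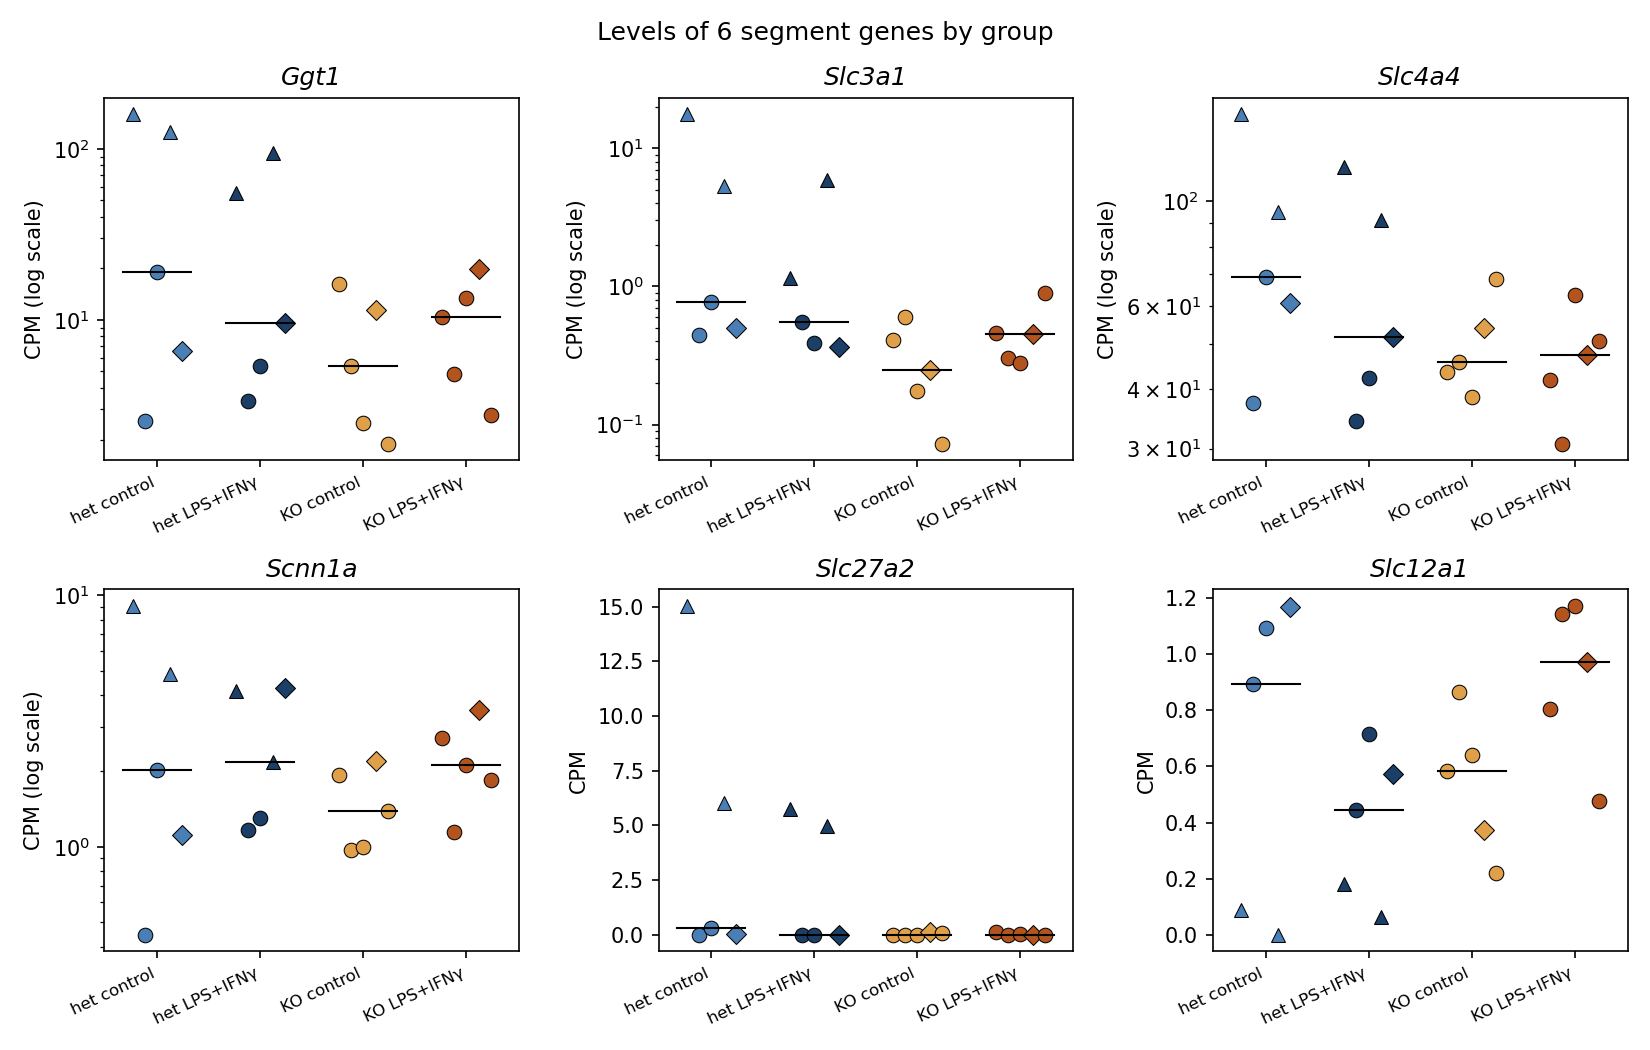
CPM of 6 genes in each library by group (log axis for Ggt1, Slc3a1, Slc4a4 and Scnn1a, linear for Slc27a2 and Slc12a1). Triangles are animals 1 and 9, diamonds the 4 libraries that go against the stimulation label, circles the rest, and bars the group medians over 5 libraries. Triangles are at the top for Ggt1, Slc3a1, Slc4a4 and Slc27a2 and at the bottom of their groups for Slc12a1.

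A regulator and other genes of the proximal programme were measured beside these members. Hnf4a was at 173.5 and 77.1 CPM in the controls of animals 1 and 9, at 38.4 and 38.3 CPM in their stimulated libraries and at most 2.91 CPM in the other 16. Of 50 other proximal transporters and enzymes on a list fixed by name, 12 were at 1 CPM or above in all 20 libraries, among them the endocytic receptors Lrp2 and Cubn and the neutral amino acid exchanger subunit Slc7a7, 26 in some and 12 in none. Their summed CPM was 1092 to 2128 in the libraries of animals 1 and 9 and 553 to 829 in the other 16.

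Markers of other cells also differed between the libraries of animals 1 and 9 and the other 16, in both directions. The summed CPM of 11 leukocyte genes was 69.8 to 343 in the 4 libraries of animals 1 and 9 and 4.83 to 23.5 in the other 16, with the T cell gene Cd3e at 0 in all 20. The order was the reverse for 11 fibroblast and smooth muscle genes, at 244 to 2369 against 3943 to 21848, and for 8 endothelial genes, at 14.4 to 24.1 against 32.3 to 104. The part of these other cells in the levels of the members was not tested. Apart from these markers, the tubular injury gene Havcr1 was at 1427 to 1804 CPM in the 4 libraries and at 21.96 to 385 CPM in the other 16.

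The loop gene Slc12a1 showed another order. Slc12a1, the sodium-potassium-chloride cotransporter of the thick ascending limb, was at 0.0893, 0.893, 1.09, 0 and 1.17 CPM in het controls and at 0.182, 0.443, 0.716, 0.0637 and 0.573 CPM in het LPS+IFNγ libraries. KO libraries ranged from 0.219 to 1.17 CPM. The 4 lowest of the 20 values were those of animals 1 and 9 (0 to 0.182 CPM), the reverse of the proximal genes, and the other 16 lay at 0.219 to 1.17 CPM.

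The other 2 genes of the thick ascending limb were silent: uromodulin (Umod) had 10 counts in all and the potassium channel Kcnj1 had 5. Both had their highest CPM in het control 1, a library of animal 1, at 6 and 3 counts, too few to read an order across libraries. The thiazide-sensitive cotransporter Slc12a3 (22 counts) and the calcium-binding protein Calb1 (12 counts) of the distal tubule stayed at or under 0.208 CPM. Of 23 other loop and distal genes, 6 were at 1 CPM or above in all 20 libraries and 7 were below it in all. The 6 include the kinases Wnk1, Wnk4 and Stk39, which are not limited to these segments. The summed CPM of the 23 was 695 to 769 in the libraries of animals 1 and 9 and 554 to 687 in the other 16.

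In the collecting duct 1 of 5 principal cell genes was measured at a level. Scnn1a, the alpha subunit of the epithelial sodium channel, was at 9.11, 0.446, 2.02, 4.86 and 1.11 CPM in het controls and at 4.18, 1.16, 1.30, 2.17 and 4.27 CPM in het LPS+IFNγ libraries. KO controls were at 0.975 to 2.19 CPM and KO LPS+IFNγ libraries at 1.14 to 3.50 CPM, so all 4 groups overlapped.

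The beta and gamma subunits Scnn1b and Scnn1g stayed under 1 CPM, at most 0.580 and 0.788, each highest in animal 1. Aqp2, the vasopressin-regulated water channel, had 1 count in 20 libraries, and the basolateral water channel Aqp3 had 24. Of 27 other collecting duct genes 14 were below 1 CPM in all libraries, and Foxi1, the transcription factor that intercalated cells need, had 0 counts in all 20.

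Stimulation was tested over all genes with edgeR's quasi-likelihood test (Benjamini-Hochberg adjusted p under 0.05). Of the 33 members 8 passed the filter on low counts with 20 libraries and 9, with Slc27a2, in 16. With 20 libraries 0 of 8 members were called in het cells, where 0% of the 14568 genes tested were called, and 0 of 8 in KO cells, where the share was also 0%. At an unadjusted p under 0.05, 1 of 8 members (Slc26a4, higher) passed in each genotype, against 13.6% of all genes in het and 8.97% in KO cells. In the 16 libraries that follow their stimulation labels 0 of 9 members were called in het cells, where 7.15% of 14630 genes were called, and 1 of 9, Slc26a4, in KO cells, where 5.76% were called. Slc26a4 had 1 count over the het controls and 0 over the KO controls. It passed the filter only through stimulated libraries where it was high, so its p-values and calls are no separate support for a rise.

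Slc26a4 (pendrin), the chloride-bicarbonate exchanger of intercalated cells, had no counts in 9 of 10 controls and 1 count in the library labelled het control 5. In het LPS+IFNγ libraries 1 to 5 it had 12, 4, 8, 16 and 0 counts, or 0.727, 0.222, 0.521, 1.02 and 0 CPM. In KO LPS+IFNγ libraries 1 to 5 it had 22, 0, 41, 2 and 27 counts, or 1.26, 0, 2.29, 0.129 and 1.61 CPM. Stimulated libraries were higher than the controls in 7 of 8 with full Nos2 induction, the exception being KO LPS+IFNγ 2, and the 2 labelled as stimulated without Nos2 had 0 and 2 counts.

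The pooled level of Slc26a4 in stimulated libraries was set against a floor of 3 counts over the group's controls, which allows for counting error at 0 counts only. It was 30.1-fold above the floor in KO cells with 20 libraries, and 15.4-fold (het) and 29.0-fold (KO) in 16. In het cells with 20 libraries it was 14.8-fold above, which is no lower bound because those controls held 1 count. The spread among stimulated libraries is not part of these ratios. Since the gene entered the tests through its high stimulated libraries, the p-values that follow describe the fits only. With 20 libraries edgeR gave adjusted p of 0.156 (het) and 0.321 (KO), and with 16 libraries 0.0580 (het) and 0.0377 (KO). The KO call in 16 libraries lay near the threshold: leaving out any 1 of the 8 gave an adjusted p of 0.0712 to 0.0888 in 7 cases and 0.00288 without KO LPS+IFNγ 2. The log2 fold change stayed at 7.06 to 7.89. DESeq2 on 20 libraries called Slc26a4 in KO (adjusted p 0.0239, where 0.79% of 14553 genes were called) but not in het cells (adjusted p 0.0614, 3.32% called).

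With the animal as a block in 16 libraries the edgeR calls changed places, to an adjusted p of 0.0462 in het cells, where 18.6% of genes were called, and 0.0572 in KO cells, where 13.5% were called. When 1 library was dropped from the 20, the adjusted p reached 0.0411 in het cells without the one labelled het LPS+IFNγ 5, and 0.0473 in KO cells without the one labelled KO LPS+IFNγ 4. The difference in response between the genotypes was not called (edgeR, 20 libraries, adjusted p 1.00, 0% of genes called). Among other genes of intercalated cells, Atp6v1b1, Slc4a1, Foxi1 and Aqp6 had 0 counts in all 20 libraries, while the ammonia transporter Rhbg reached 0.382 CPM and the receptor Insrr 0.482 CPM. Rhbg was higher in the library labelled stimulated in 5 of 8 pairs and Insrr in 6 of 8. Carbonic anhydrase Car2, which other tubular cells also express, was at 29.5 to 144 CPM, and the proton pump subunit Atp6v0d2 at 0.0582 to 7.22 CPM, with neither called by edgeR for stimulation. Car2 went the other way, lower in the library labelled stimulated in 7 of 8 pairs, and so did Atp6v0d2 in 6 of 8. Slc4a9 and Slc26a7, of the same list of collecting duct genes, were each lower in 5 of 8. The part of intercalated cells in the level of Slc26a4 was not tested.

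**Figure D3:**
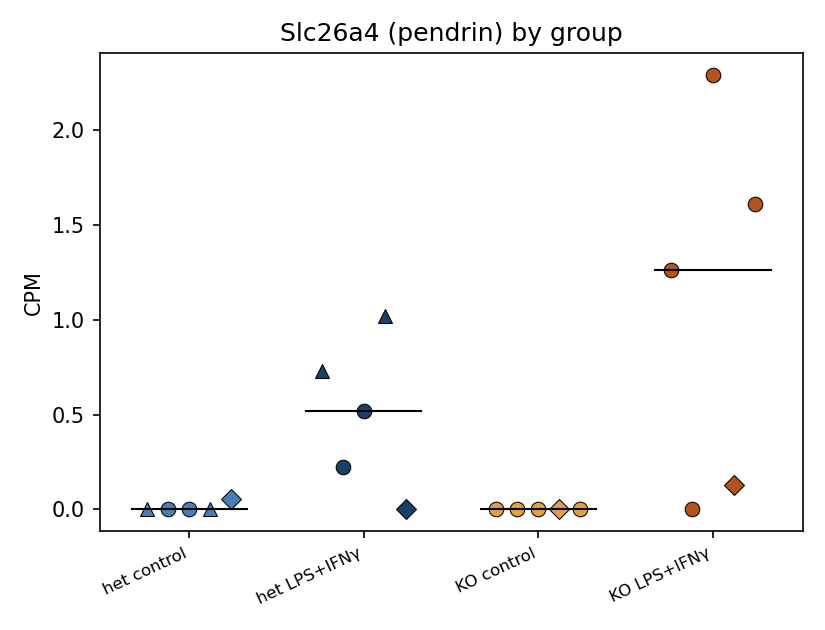
CPM of Slc26a4 in each library by group, with triangles for animals 1 and 9, diamonds for the 4 libraries that go against the stimulation label, circles for the rest and bars for group medians over 5 libraries. The 10 controls lie at or next to 0, the het stimulated libraries reach 1.02 CPM and the KO stimulated libraries 2.29 CPM, with 1 circle at 0.

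The other tested members were not called by stimulation in either genotype, in 20 or 16 libraries. In het cells with 20 libraries the log2 fold change ± SE was −0.90 ± 1.02 for Ggt1, −1.57 ± 0.95 for Slc3a1 and −0.30 ± 0.35 for Slc4a4 (edgeR adjusted p 0.501 to 0.768). In KO cells it was 0.45 ± 1.04, 0.63 ± 1.05 and −0.10 ± 0.35 (adjusted p 0.948 to 0.987). The estimates for Ggt1 and Slc3a1 thus had opposite signs in the genotypes, each smaller than 2 SE, but the signs did not hold across animals. Among het pairs Ggt1 was lower in the library labelled stimulated in animals 1 and 9 and 1.33- and 1.46-fold higher in animals 2 and 4. Over both genotypes Ggt1 was higher in 5 of 8 pairs and Slc3a1 in 6 of 8, and without animals 4 and 8 in 3 of 6 and 5 of 6.

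The medians over the 8 tested members, −0.56 in het and 0.52 in KO cells on the log2 scale, stand beside −0.02 and −0.00 over all genes, and include Slc26a4, which passed the filter through its stimulated libraries. Within an animal, Slc4a4 was lower in the library labelled stimulated in 8 of 8 pairs. The differences were small, at a log2 fold change of −0.18 ± 0.08 in het cells and −0.23 ± 0.08 in KO cells when animal was a block (20 libraries, edgeR adjusted p 0.306 and 0.477), and 2 of those pairs are of animals 4 and 8. Pck1 was lower in 6 of the 6 pairs left without animals 4 and 8, at −2.82 ± 1.30 in het and −2.92 ± 1.446 in KO cells in 16 libraries (edgeR adjusted p 0.239 and 0.344). In those 16 libraries its median was 0 CPM in both stimulated groups, and it passed the filter on low counts mainly through controls. Its estimates and p-values there are therefore no separate support for a fall.

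In animals 1 and 9, where proximal genes had a level, control and stimulated libraries can be set side by side, though 2 animals give no test. Kap had 90 counts in the control and 4 in the stimulated library of animal 1, and 80 and 1 in those of animal 9. Slc7a9 had 80 and 0 counts in animal 1 and 20 and 1 in animal 9. Ggt1 was 2.89- and 1.33-fold lower and Slc4a4 1.29- and 1.04-fold lower. Slc3a1 was 15.2-fold lower in animal 1 and 1.102-fold higher in animal 9. The principal cell gene Scnn1a was also lower, 2.18- and 2.24-fold. Outside the members, the water channel Aqp1 was 27.9- and 15.6-fold lower in the same pairs and Hnf4a 4.52- and 2.01-fold lower. Other genes of their lists went both ways in the 6 pairs without animals 4 and 8, which include animals 1 and 9. Slc6a19, Slc15a2, Hnf4g, Pax8 and Cdh1 were higher in the library labelled stimulated in 6 of 6. Slc1a1, Khk, Keg1, Pax2 and Cdh16 were lower in 6 of 6.

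Among the other segment genes, few were called by edgeR in 16 libraries and none with 20, where DESeq2 called Slc1a1 in het cells (adjusted p 0.0299) and Slc6a19 in KO cells (adjusted p 0.0298). Of 30 tested proximal genes beyond the members, Slc1a1, a glutamate transporter of the apical membrane, fell in het (−1.95 ± 0.47, edgeR adjusted p 0.0186) and KO cells (−1.77 ± 0.47, adjusted p 0.0363), and Slc6a19, the neutral amino acid transporter of the apical membrane, rose in KO cells (4.05 ± 0.81, adjusted p 0.00621; het 1.76 ± 0.71, adjusted p 0.173). The difference between the genotypes in the response of Slc6a19 was not called (2.30 ± 1.03, adjusted p 1.00). With the animal as a block 8 of the 30 fell in het cells. Of all 14630 genes 1164 fell there, and 18.6% were called in either direction. In KO cells 3 fell and 1 rose, a share close to the 13.5% of all genes called, of which 740 fell and 1228 rose. Slc1a1 was then no longer called in KO cells (adjusted p 0.0643). Of 14 tested loop and distal genes, 1 fell in het cells, the kinase Wnk4 (−1.56 ± 0.36, adjusted p 0.0139), and 0 in KO cells, and 0 of 12 tested collecting duct genes were called in either genotype, beside 7.15% of all genes in het and 5.76% in KO cells. With the block 1 of 14 loop and distal genes fell in het and 2 in KO cells, and of the 12 collecting duct genes 2 rose and 3 fell in het cells and 3 fell in KO cells. At these list sizes the counts without the block are near the background.

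Genotype was compared within each state. With 20 libraries 0 of 8 members were called between KO and het controls, where 0% of genes were called, and 0 of 8 after stimulation, with 0% called. DESeq2 called 0 members in both, with 2 and 0 of 14553 genes called. With edgeR after stimulation 0 of 8 members passed an unadjusted p of 0.05, beside 2.51% of all genes. The 7 tested members other than Slc26a4, which had 1 count over all controls, had log2 fold changes of −3.98 to −0.18 between KO and het controls. In 16 libraries Slc12a1 lay on the other side of 0, at 0.19 ± 0.90. Slc3a1 (−3.98 ± 1.08, p 0.00163) and Ggt1 (−3.06 ± 1.11, p 0.0127) passed an unadjusted p of 0.05, as did 3.43% of all genes, and their edgeR adjusted p was 0.999 (DESeq2 0.0646 for Slc3a1 and 0.486 for Ggt1).

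The 4 libraries of animals 1 and 9 are all het. Without them Slc3a1 was at −0.89 ± 0.53 and Ggt1 at −0.32 ± 0.78 (edgeR over the libraries of the other 8 animals, adjusted p 1 for both). With 20 libraries Slc3a1 passed the filter on low counts only with the 4 libraries of animals 1 and 9, where it was high. Its p-values between KO and het controls therefore describe those libraries and are no support for a difference. In the 16 libraries that follow their stimulation labels 0 of 9 members were called between the controls, where 0% of genes were called. Slc27a2 passed the filter of that fit only through the libraries of animals 1 and 9, which hold 98.0% of its counts. Its difference between the genotypes therefore describes those libraries and is no support for one. The animals and the genotype cannot be told apart in these comparisons.

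After stimulation the differences were −1.78 ± 1.00 for Slc3a1 and −1.70 ± 1.05 for Ggt1 with 20 libraries (edgeR adjusted p 1.00 for both), and 0.13 ± 0.54 and 0.75 ± 0.81 without animals 1 and 9. Scnn1a differed by −1.24 ± 0.61 in controls and −0.21 ± 0.60 after stimulation, and by 0.32 ± 0.54 in controls without animals 1 and 9. Slc12a1 differed by −0.24 ± 0.74 in controls and 1.19 ± 0.75 after stimulation. None of these passed the adjusted threshold, which does not show that the genotypes were alike. The difference in response gave 0 of 8 calls, with 0 members at an unadjusted p under 0.05, beside 0% of genes called and 0.947% at that p, which says nothing particular to the members.

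**Figure D4:**
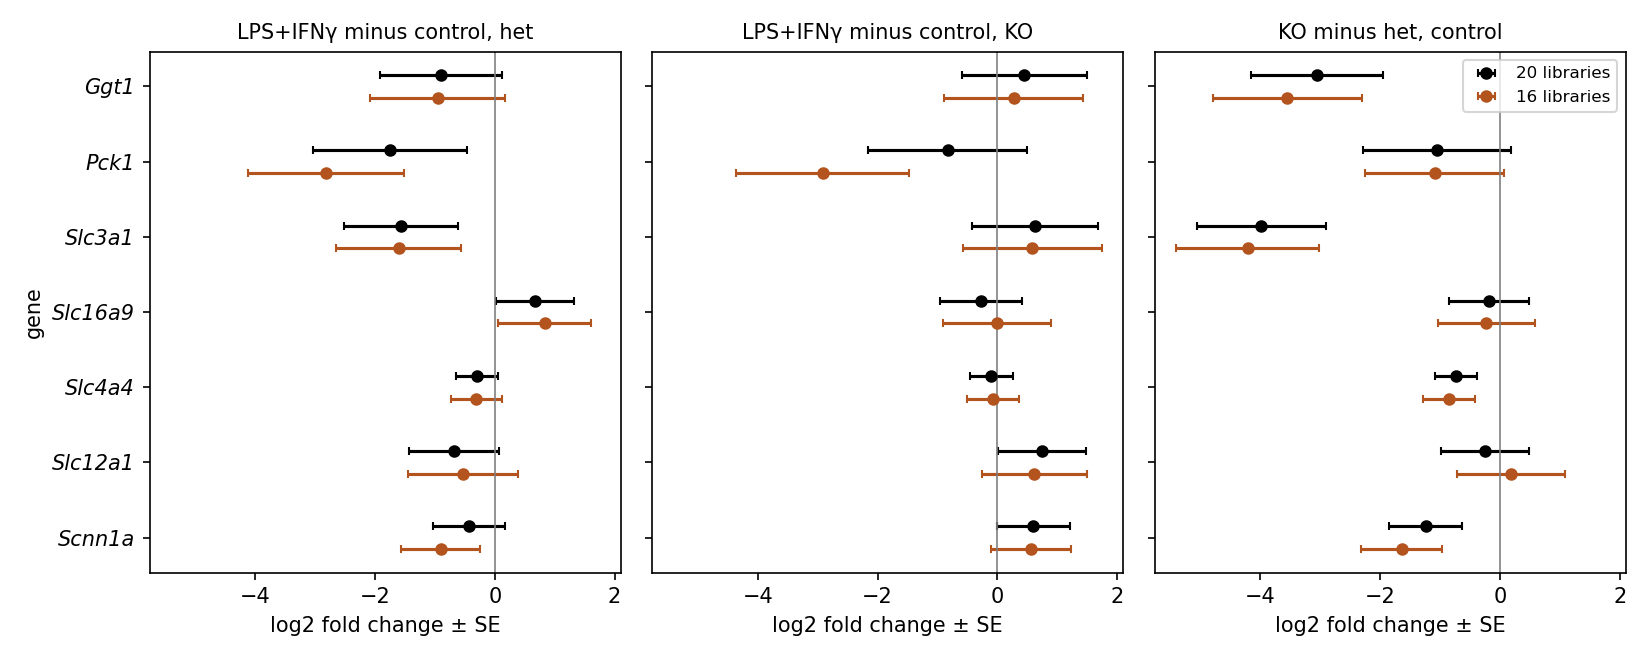
Log2 fold change ± SE (edgeR) of the 7 tested genes other than Slc26a4, for stimulation in het cells, stimulation in KO cells and KO against het controls, with all 20 libraries (black) and the 16 that follow their labels (brown). Most error bars for stimulation reach or come near 0, and Ggt1 and Slc3a1 lie below −3 in the comparison of controls.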

How the data were processed

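RNA-seq libraries of 20 cultures were read from 1 table of counts. The authors' deposited values are estimated counts per Ensembl gene, in whole numbers, so no rounding was needed. Salmon 1.10.2, DESeq2 1.45.3, FastQC 0.11.9, R 4.4.1 and the build GRCm39 are listed, without roles, per the submitters' processing notes. Strand setting and filters: not given in the sources used here. Symbols came from GENCODE M21 (92.0% of IDs matched), which also gave exon lengths. No per-sample column was left unused (0).

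CPM are TMM-scaled. Groups and animals came from the labels. Tests used edgeR 4.0.16 in R 4.3.3 (filterByExpr, robust quasi-likelihood F test, 4 group means, no block); SE is the absolute log2 fold change over the square root of F. limma 3.58.1 voom, DESeq2 1.42.0, other scaling and filters, an animal block and left-out libraries were alternatives. The test was checked on simulated counts. Pairing rests on the animal IDs in the labels, which join a control and a stimulated library of 1 genotype for 8 animals. The correlation of an animal's libraries, after subtracting group means, was −0.298 to 0.623 and exceeded 0.1 in 8 of 10 animals.

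The members, the lists, the tests and the libraries left out were chosen with earlier results of these data known. All 33 members are named; values per library or group ranges are given for those called in any comparison and those with a median of at least 10 CPM, and the others shown in full were chosen after their values were seen. From each other list up to 3 genes with the lowest p in a comparison are named, and other genes named from those lists were likewise chosen after their values were seen.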

Additional observations from a re-analysis of the deposited data

Results flagged for a closer look

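Among groups of 5 libraries in which a tested member varied (31 groups over 8 members), 4 had 1 library far from the other 4. The measure was the gap of that library to the nearest value as a share of the range. Chance gives about 1 in 20 for normally distributed values, which these CPM need not be, so that rate is a rough guide only. Slc3a1 stood out at 17.5 CPM in het control 1 and at 5.86 CPM in het LPS+IFNγ 4, libraries of animals 1 and 9. Pck1 stood out at 0.906 CPM in the library labelled KO LPS+IFNγ 4, in which Nos2 was at 0. Slc26a4 stood out at 0.0556 CPM, or 1 count, in the library labelled het control 5, where the other 4 het controls were at 0. With 4 values at 0 any count meets the measure by construction, so the chance rate does not apply to that group. No difference in response between the genotypes was called for a member.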

How the results depend on the processing

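No tested member's call reversed, and over the alternatives 841 member values kept their direction and side of the threshold, 68 changed sign without being called and 6, all of Slc26a4, became called. Genes called by stimulation in het cells rose from 0 to 483 with DESeq2, 1046 in 16 libraries, 2724 there with the animal as replicate block, 623 there without animals 1 and 9 and 604 there without animals 5 and 7, and were 0 to 744 with 1 library left out. In KO cells they were 115, 843, 1968, 1960 and 462 under the same settings and 0 to 152 with 1 left out. Members called were 1 in het cells with the block in 16 libraries and 0 to 1 with 1 library left out, and 1 in KO cells with DESeq2, in 16 libraries and in 16 without animals 1 and 9, and 0 to 1 with 1 left out. DESeq2 called 2 genes between KO and het controls and 1 gene for the difference in response. The cause of these changes was not tested. In 20 libraries the replicate block called 0 members and 0 genes in each comparison; in 7 of 20 libraries the best match was the same animal's other library. At 5 CPM 1 member was detected in all 20 libraries and 4 in some. Members with few counts could not be tested, and depth limits them.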
